A study of Mus musculus with 6 samples.

Results

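The serotonin receptor genes Htr1a, Htr1b, Htr1f, Htr2a, Htr2c, Htr3a, Htr4, Htr5a, Htr6 and Htr7 were selected by symbol, 10 of the 19465 genes counted in coronal mouse brain sections, and all 10 were present in all 6 sections. The sections were formalin-fixed and paraffin-embedded (FFPE) and came from untreated male C57BL/6J mice, biological replicates 1 and 2 at each of postnatal day 21 (P21), adult (12 to 15 weeks in the sample titles) and aged (28 months). Each section was profiled on a 10x Genomics Visium slide, on which pairs of gene-specific probes are captured on barcoded spots and counted as unique molecular identifiers (UMIs). P21 and adult sections were placed on slides of the first version and read with Space Ranger 2.0.0. Aged sections were transferred with the CytAssist instrument to slides of the second version and read with Space Ranger 3.1.1. The paper also describes an enhanced probe design for the aged libraries. Slide, transfer, probes, software and age therefore cannot be told apart in aged vs. adult. Every age held 2 sections, and both comparisons used the same adult sections as their reference.

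After filtering, 20336 spots were kept, 2917 to 3679 per section, with a median of 12074.5 to 25535 UMIs per spot and 42422997 to 106783660 UMIs per section. Spot barcodes mark slide positions, so sections on the same slide version shared 2607 to 3363 of them and sections on different versions shared 0. The sections did not cover the same structures to the same extent. A small cluster led by Krt2 and Trh held 11 spots of adult 1, 36 of aged 2 and at most 1 of any other section, and the medial habenula held 7 spots in adult 1 against 28 to 69 elsewhere.

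Serotonin is made by raphe neurons of the brainstem, whose axons reach nearly all of the forebrain, and its action on a target cell depends on which receptors that cell carries. The receptors encoded by Htr1a, Htr1b, Htr1f and Htr5a couple to inhibitory Gi/o proteins, those of Htr2a and Htr2c to Gq proteins and phospholipase C, and those of Htr4, Htr6 and Htr7 to Gs proteins and adenylyl cyclase. Htr3a encodes a subunit of a ligand-gated cation channel and marks a class of cortical interneurons.

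Spots were clustered without the receptor genes and without the pathway genes described further on, and 26 clusters with at least 10 spots in every section were tested as anatomical zones. A zone carries an anatomical name where a marker panel gave one, and otherwise the names of its leading genes. The medial habenula, with its 7 spots in adult 1, is described but was not tested. Levels are UMIs of a gene per 1000000 UMIs (CPM) of the spots summed within a zone and section, and are compared between zones and ages for the same gene, never between genes. The levels by zone below are descriptions, given as mean ± SD over the 6 sections, with no test, since the zones were drawn on the same spots.

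**Figure D1:**
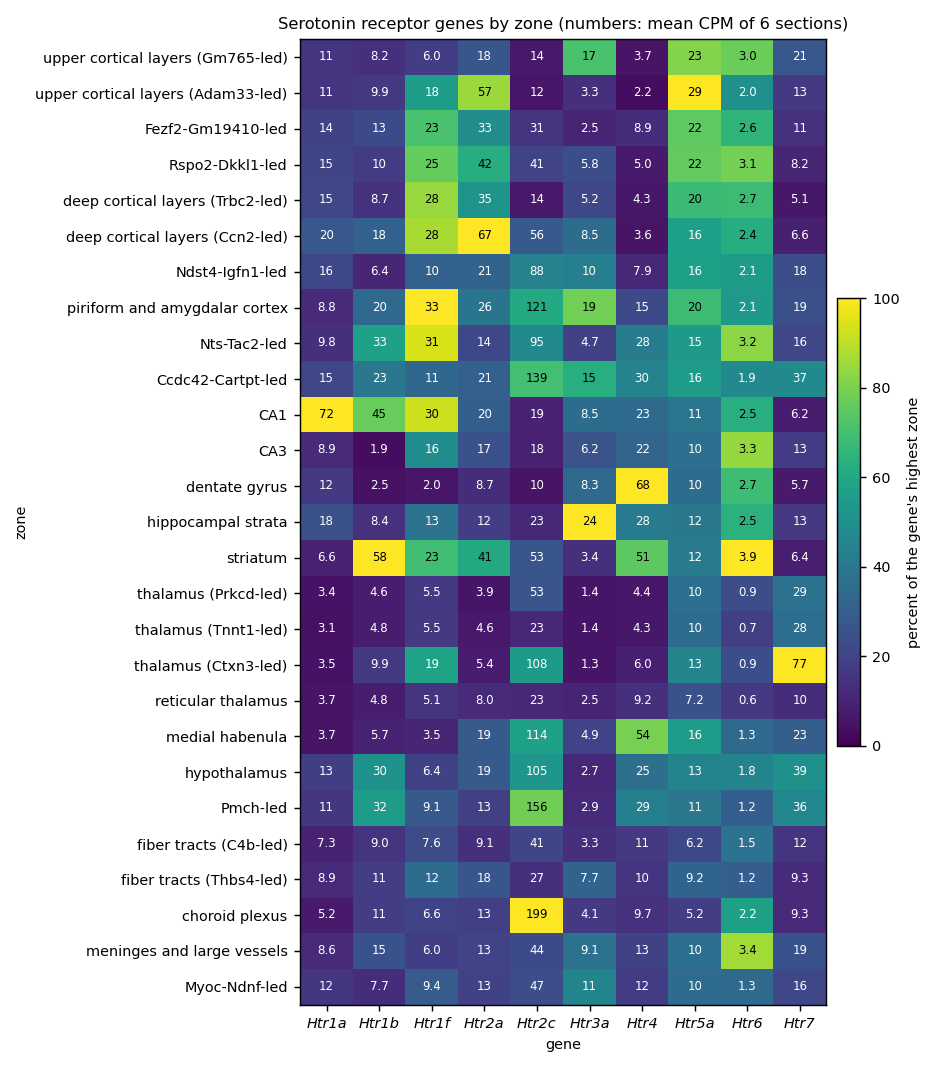
Level of each serotonin receptor gene (columns) in each of 27 zones (rows). The number in a cell is the mean CPM of the 6 sections and the colour is that mean as a percent of the gene's highest zone. Htr1a peaked in CA1 at 72.3 CPM, Htr2c in the choroid plexus at 199 CPM and Htr7 in the Ctxn3-led thalamic zone at 76.8 CPM. Htr6 peaked in the striatum at 3.90 CPM.

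Of the Gi/o-coupled receptors, Htr1a (chr13:105443639-105448122, plus strand, GRCm38) was concentrated in CA1, the output field of the hippocampus. CA1 held 72.3 ± 16.8 CPM, with 50.02 and 63.6 at P21, 69.7 and 99.4 in adult and 69.2 and 81.9 in aged sections. The next zone, the Ccn2-led deep cortical layers, held 19.6 ± 6.72 CPM, and no section of it reached the lowest CA1 value. Below CA1 the order was not resolved: the Ccn2-led layers, the hippocampal strata at 17.9 CPM and the zone led by Ndst4 and Igfn1 at 15.8 CPM overlapped. The Tnnt1-led and Prkcd-led thalamic zones were lowest, at 3.14 and 3.40 CPM.

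Htr1b (chr9:81628291-81633828, minus strand), an autoreceptor and heteroreceptor of axon terminals, had its highest mean in the striatum, at 58.5 ± 32.5 CPM. Its striatal level was nearly the same in the P21 sections (39.3 and 38.6) and the adult sections (39.0 and 39.0) and stood apart in the aged ones (78.7 and 116). CA1 followed at 44.9 ± 8.05 CPM and exceeded the striatum in 2 of the 6 sections. The zone led by Nts and Tac2, at 33.4 CPM, and the Pmch-led zone, at 32.4 CPM, came next and overlapped. The other hippocampal cell fields lay at the opposite end, CA3 at 1.89 and the dentate gyrus at 2.55 CPM, so neighbouring fields of the same formation spanned most of the range of this gene.

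Htr1f (chr16:64924729-65105854, minus strand) was spread over several zones with similar levels. Piriform and amygdalar cortex held 32.8 ± 3.08 CPM, the Nts-Tac2-led zone 30.8 ± 6.49, CA1 30.2 ± 11.3 and the Ccn2-led and Trbc2-led deep cortical layers 28.4 and 27.7, all overlapping. It was lowest in the dentate gyrus, at 2.01 CPM. In the Ctxn3-led thalamic zone its level followed the section rather than the age, with 43.9 CPM in adult 1 and 44.7 in aged 2 and 4.90 to 8.68 in the other 4 sections.

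Htr5a (chr5:27842149-27855088, plus strand) was highest in the upper cortical layers, with 28.7 ± 7.04 CPM in the Adam33-led and 23.4 ± 8.15 CPM in the Gm765-led zone, whose ranges overlapped. The range over zones was narrower than for the other Gi/o-coupled receptors, since its lowest zone, the choroid plexus, still held 5.21 CPM and its highest lay at 2.06 times the mean of all zones, compared with 5.77 times for Htr1a in CA1.

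Of the Gq-coupled receptors, Htr2a (chr14:74640840-74709494, plus strand), the cortical receptor on which hallucinogens act, was a gene of the cortex and striatum. The Ccn2-led deep cortical layers held 66.9 ± 19.3 CPM and the Adam33-led upper layers 56.9 ± 13.3, overlapping. The zone led by Rspo2 and Dkkl1 held 41.6 CPM, the striatum 40.6 and the Trbc2-led deep layers 34.5. The Prkcd-led and Tnnt1-led thalamic zones were again lowest, at 3.91 and 4.60 CPM.

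Htr2c (chrX:146962513-147197277, plus strand), long known for its abundance in the choroid plexus epithelium, held 199 ± 30.5 CPM there. The level ran from 148 and 181 in the P21 sections through 223 and 200 in adult to 231 and 209 in aged sections. The Pmch-led zone, led by a hypothalamic peptide gene, held 156 ± 63.4 CPM and exceeded the choroid plexus in 1 section, adult 1, at 248. The zone led by Ccdc42 and Cartpt followed at 139 CPM, piriform and amygdalar cortex at 121 and the medial habenula at 114, the last with 259 in aged 2 and 47.4 to 104 in the other sections. The dentate gyrus was lowest, at 10.4 CPM.

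Htr3a (chr9:48899213-48911099, minus strand), the channel subunit, was highest in the hippocampal strata at 24.2 ± 8.27 CPM, followed by piriform and amygdalar cortex at 19.0, the Gm765-led upper cortical layers at 17.2 and the Ccdc42-Cartpt-led zone at 15.2, all overlapping. The last of these was uneven, with 29.9 CPM in adult 1 and 26.2 in aged 2 and 5.58 to 12.2 in the others. The Ctxn3-led and Prkcd-led thalamic zones held 1.35 and 1.39 CPM.

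Of the Gs-coupled receptors, Htr4 (chromosome 18) had its highest mean in the dentate gyrus, at 67.8 ± 26.5 CPM. The dentate gyrus values ran from 38.6 and 38.3 at P21 through 62.3 and 74.0 in adult to 101 and 91.8 in aged sections, and the 3 ages did not overlap. The medial habenula, at 54.0 CPM, and the striatum, at 50.7 CPM, came next and overlapped each other. The Adam33-led upper cortical layers held 2.18 CPM, the least.

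Htr6 (chr4:139061108-139075570, minus strand), a receptor known from striatal and cortical neurons, held 3.90 ± 2.38 CPM in the striatum, its highest zone, and 0.641 in the reticular thalamus. Its zones overlapped throughout.

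Htr7 (chr19:35958734-36057507, minus strand), a receptor of midline thalamus and hypothalamus, was highest in the Ctxn3-led thalamic zone, at 76.8 ± 20.1 CPM, and no section of the next zone, the hypothalamus at 38.6 ± 5.75, reached its lowest value there. The Ctxn3-led values were 52.6 and 69.7 at P21, 96.8 and 67.2 in adult and 68.8 and 106 in aged sections. The Ccdc42-Cartpt-led zone at 36.8 CPM and the Pmch-led zone at 35.9 overlapped the hypothalamus. The Trbc2-led deep cortical layers were lowest, at 5.06 CPM. Of all 10 receptor genes, Htr1a and Htr7 were the ones whose highest zone did not overlap the next.

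**Figure D2:**
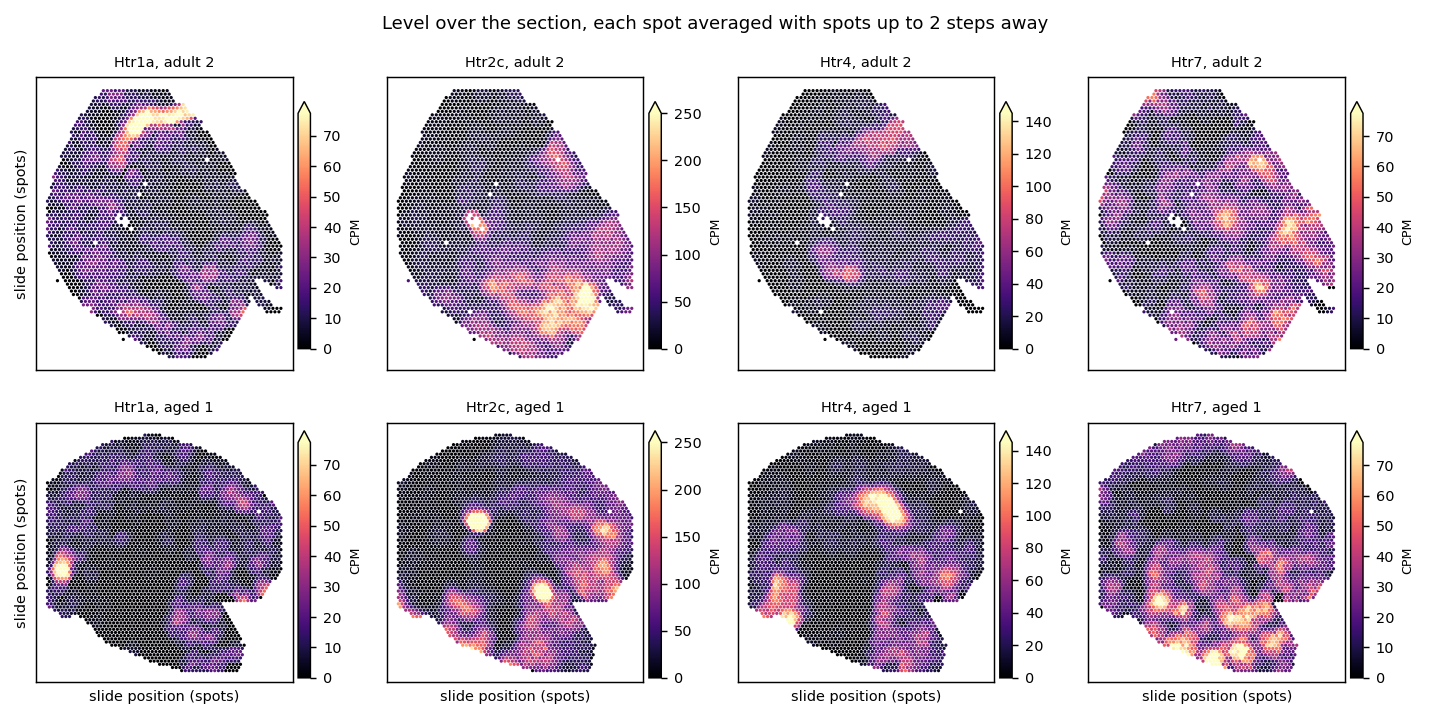
Level of Htr1a, Htr2c, Htr4 and Htr7 (columns) over section adult 2 (top) and section aged 1 (bottom), drawn at the spot positions on the slide, each spot averaged with the spots up to 2 steps away and coloured in CPM on 1 scale per gene. Htr1a formed a band along CA1, Htr2c patches at the choroid plexus and the base of the section, Htr4 a dentate gyrus patch and Htr7 scattered foci, with the highest averaged spot at 117 CPM for Htr1a in adult 2 and 377 CPM for Htr2c in aged 1.

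Spatial concentration could also be read without zones from the Moran's I score, which is near 0 for a gene scattered at random over the spots and rises where neighbouring spots share a level. Htr2c had the highest score of the 10 genes, with a median of 0.3198 over the 6 sections (0.2494 to 0.5548), and ranked between 289th and 771st among the genes listed for a section. Htr4 followed at 0.141, Htr2a at 0.1338, Htr7 at 0.1247 and Htr1f at 0.1033. Htr1a, highest in the thin CA1 layer, scored 0.0557, and Htr6 scored least at 0.013. The genes also differed in abundance, with 24131 UMIs over all sections for Htr2c and 923 for Htr6. The part of abundance in the order of the scores was not tested. For 9 of the 10 genes, all but Htr7, both aged sections scored above the other 4, with 0.2648 and 0.3503 against 0.0764 to 0.0917 for Htr1b. The share of all listed genes with this order was not counted, so whether the order is particular to the receptors is not known. Ranks among the listed genes moved both ways. Htr1b ranked 1544th and 1171st in aged against 2285th and 2222nd in adult sections, and Htr2c 771st and 329th against 289th and 312th. The software, slide version and probes of the aged sections cannot be told apart from age here.

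Across the 26 zones the levels of Htr1f and Htr2a were the most alike of any receptor pair (Pearson r = 0.69 of mean log2(CPM + 1)), followed by Htr2a and Htr5a (r = 0.65), and Htr2a and Htr7 were the least alike (r = -0.44). Zones of all genes share the same libraries, so these values are descriptions. Among 17992 genes the pattern most like that of Htr1a was that of Sstr4, a somatostatin receptor gene (r = 0.815), followed by Snx11 and Trpc4. Htr7 was most like the glycine receptor gene Glra1 (r = 0.838), Calb2 and Zfp423, and Htr2a most like the orphan receptor gene Gpr26 (r = 0.866), Fam78b and Gramd2. For Htr1b the closest was Bcr (r = 0.797), for Htr1f Ankrd13b (r = 0.796), for Htr2c Crb1 (r = 0.843), for Htr3a Lix1 (r = 0.792), for Htr4 Psmg4 (r = 0.882), for Htr5a Stradb (r = 0.902) and for Htr6 Otulinl (r = 0.853).

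The receptor genes were then compared between ages, first in whole sections and then within zones. Changes were tested with edgeR's quasi-likelihood test and Benjamini-Hochberg adjustment over all genes tested, and a gene was called where the adjusted p was below 0.05 and the change exceeded 1.5-fold. A section holds many cell types, so fewer cells of a type and less RNA per cell cannot be told apart.

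In whole sections the receptor genes moved little. A whole-section level also moves with the share of the section that each zone takes. The hypothalamus held 88 and 123 spots in adult, 249 and 217 at P21 and 274 and 372 in aged sections. The hippocampal strata held 242 and 285 in adult, 214 and 201 at P21 and 130 and 124 in aged sections. The part of this in the whole-section results was not tested. At P21, Htr1f was the receptor gene called, where 8.06% of the 18104 genes tested were called (5.69% higher, 2.37% lower). It held 10.21 and 10.37 CPM at P21 against 17.1 and 15.7 in adult, so the ages did not overlap, and was lower by a log2 change of -0.68 (SE 0.10, adjusted p = 0.000544, edgeR), or 1.60-fold. It held 14.5 and 16.5 CPM in aged sections.

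In aged vs. adult whole sections 28.4% of the genes tested were called (23.8% higher, 4.68% lower), and the receptor genes stayed below 1.5-fold, although 4 of the 10 passed the adjusted p alone, as did 58.9% of all genes. Htr4 was higher, with 21.8 and 19.7 CPM against 12.5 and 14.3 (log2 change 0.53, SE 0.11, adjusted p = 0.00149), and Htr5a, with 18.9 and 20.9 CPM against 14.4 and 12.6 (0.45, SE 0.10, adjusted p = 0.0026). Htr1b was 0.32 higher (adjusted p = 0.0167) and Htr1a 0.34 lower on the log2 scale (log2 change -0.34, adjusted p = 0.0136). Htr4 passed the fold limit without adult 2 (0.61, adjusted p = 0.00301), without aged 2 (0.63, adjusted p = 0.0013) and with plain library sizes (0.63, adjusted p = 0.000655), which moved the median of all genes from 0.04 to 0.15.

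Within zones, 211 of the 260 pairs of a receptor gene and a zone passed the filter on low counts. Htr2c passed in all 26 zones and Htr6 in 4, and a gene scarce at 1 age may have passed through the age where it was high. Zones are parts of the same sections, so a count of zones with a change is not a count of independent results. At P21 vs. adult 13 pairs were called, 6 higher and 7 lower, or 6.16% of those tested, beside 4.46% of all 299999 gene and zone pairs (2.73% higher, 1.73% lower). The median log2 change over the receptor pairs was -0.02, and that over all genes lay between -0.01 and 0.01 in every zone. The count fell to 1 without P21 1, 7 without P21 2, and 5 without adult 1 or without adult 2, and rose to 20 without aged 1 or without aged 2, which enter through the shared estimate of the spread.

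**Figure D3:**
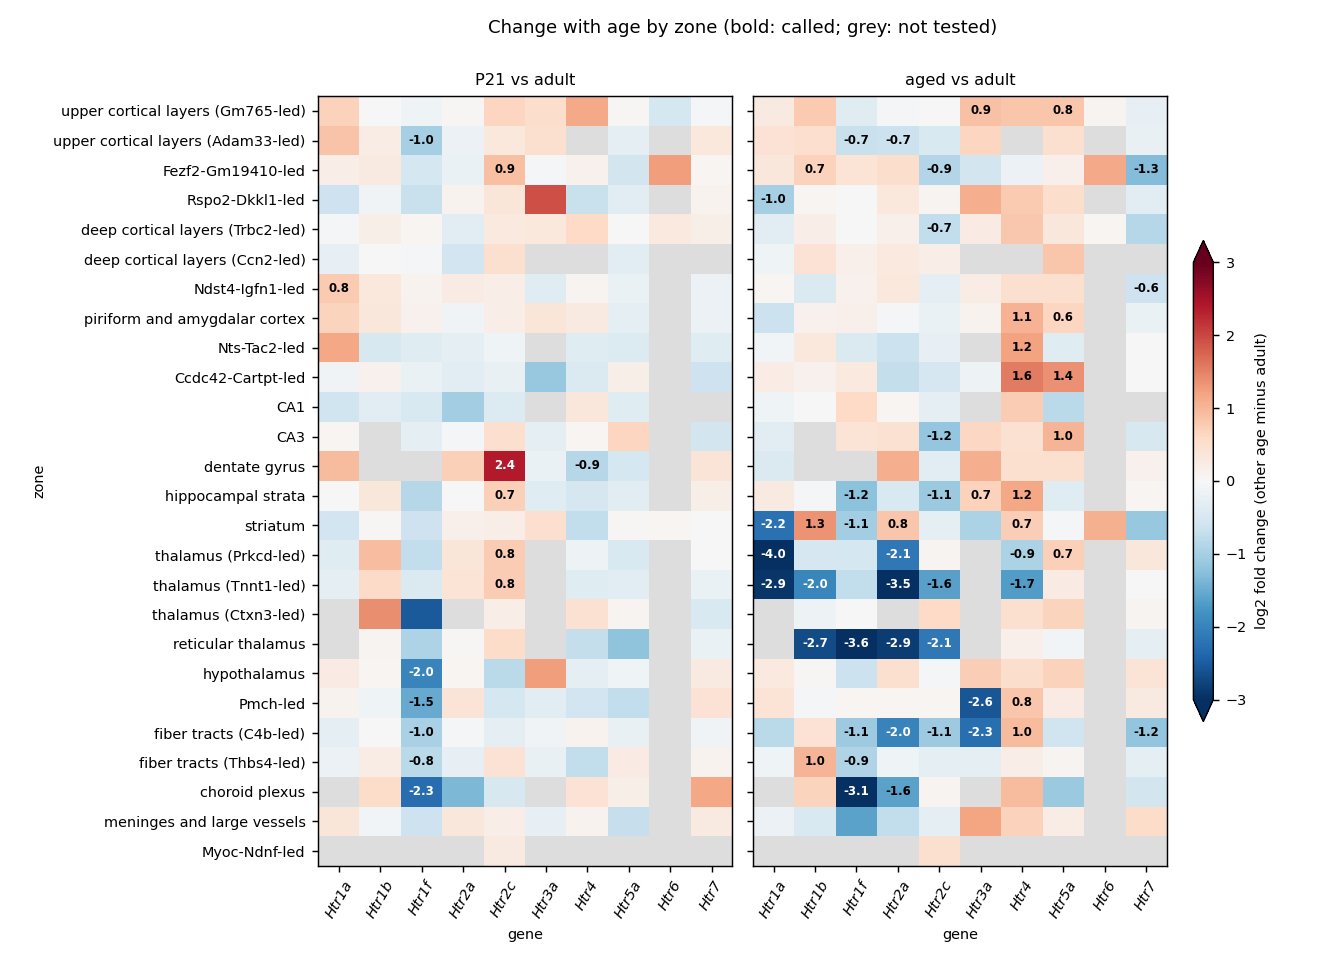
Log2 change of each serotonin receptor gene (columns) in each tested zone (rows), P21 vs. adult on the left and aged vs. adult on the right. Red is higher and blue lower than in adult, bold numbers mark the 13 calls on the left and the 51 on the right, and grey cells did not pass the filter on low counts. Most calls on the left were Htr1f lower and Htr2c higher, and many of the lower calls on the right lay in some of the thalamic and fiber tract zones.

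Htr1f accounted for 6 of the 7 lower calls at P21. Its estimate was below adult in 21 of the 24 zones where it was tested (median -0.61), a count not taken over all genes. In the Adam33-led upper cortical layers it held 14.2 and 10.6 CPM at P21 against 31.2 and 21.3 in adult (log2 change -1.0, SE 0.25, adjusted p = 0.00809). In the hypothalamus the values were 2.85 and 2.28 against 10.5 and 10.1 CPM (-1.98, SE 0.43, adjusted p = 0.0357), on 21 and 34 UMIs. The choroid plexus (-2.28), the Pmch-led zone (-1.51) and the C4b-led and Thbs4-led fiber tracts (-0.97 and -0.80) were called too. Each of these calls was lost on leaving out 1 section: the hypothalamus and fiber tract calls and that of the choroid plexus without any of the 4 (adjusted p of 0.06 to 0.242), the Adam33-led one without P21 1 (0.0885), P21 2 (0.0597) or adult 1 (0.26), and the Pmch-led one without P21 1 (0.301), P21 2 (0.14) or adult 1 (0.599). In the Adam33-led layers 6 pan-neuronal markers summed to 7474 and 7282 CPM at P21 against 10113 and 9152 in adult and 7 fiber tract markers to 9295 and 9708 against 4166 and 3784, and in the hypothalamus the pan-neuronal markers to 4428 and 4440 against 5624 and 5102. Their part in the Htr1f result was not tested. Over the 11 tested zones above the gene's own mean over zones, the median log2 change of Htr1f was -0.45, with 1 lower call. Over the 13 below that mean it was -0.8, with 5 lower calls. The mean includes the sections compared, so a zone's place is not independent of the change, and the same split was not taken over all genes. Piriform and amygdalar cortex, its highest zone, differed from most, with 35.5 and 30.7 CPM at P21 against 30.2 and 31.9 in adult.

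Htr2c was higher at P21 in 5 zones. In the Prkcd-led thalamus it held 73.5 and 67.0 CPM at P21 against 42.7 and 42.9 in adult (log2 change 0.75, SE 0.12, adjusted p = 0.00141), the 1 call of the 13 that held without each section in turn, although it was lost with edgeR's glmTreat, which tests against a fold of 1.5 itself (adjusted p = 0.722). The Tnnt1-led thalamus showed 39.2 and 36.6 against 28.1 and 18.5 CPM (0.76, SE 0.18, adjusted p = 0.00629; lost without P21 1 at 0.0994 and without adult 2 at 0.18). In the Fezf2-Gm19410-led zone the values were 51.8 and 49.4 against 34.1 and 18.9 CPM (0.90, SE 0.19, adjusted p = 0.00165; lost without P21 1 at 0.0667 and without adult 2 at 0.0553), and the hippocampal strata showed a log2 change of 0.72 (adjusted p = 0.0475; lost without any of the 4 sections, at 0.0684 to 0.589). The 9 choroid plexus markers summed to 1043 and 1005 CPM at P21 against 844 and 440 in adult in the Prkcd-led thalamus, to 790 and 895 against 1061 and 870 in the Tnnt1-led thalamus, to 611 and 638 against 343 and 294 in the Fezf2-Gm19410-led zone and to 3591 and 2123 against 983 and 447 in the hippocampal strata, and their part in these calls was not tested.

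The dentate gyrus held the largest log2 change among the P21 receptor calls, and calls of opposite direction for Htr2c and Htr4. Htr2c held 31.8 and 13.1 CPM at P21 against 4.93 and 3.99 in adult (log2 change 2.39, SE 0.50, adjusted p = 0.00601), in the zone where it was lowest over all sections. Htr4 held 38.6 and 38.3 against 62.3 and 74.0 CPM (-0.86, SE 0.18, adjusted p = 0.0049), in the zone where it was highest. Both calls were lost without P21 1 (adjusted p = 0.326 and 0.101) and without adult 2 (0.081 and 0.101). The summed level of 9 choroid plexus markers in the dentate gyrus was 3801 and 1470 CPM at P21, 202 and 98.0 in adult and 2761 and 38.5 in aged sections. The part of these markers in the P21 result was not tested. The summed level of 8 dentate gyrus markers was 1750 and 1974 CPM at P21 against 3046 and 3119 in adult, and its part in the Htr4 result was not tested either.

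Htr1a was called in the Ndst4-Igfn1-led zone alone among the 22 zones where it was tested, with 20.8 and 23.1 CPM at P21 against 13.7 and 11.5 in adult (log2 change 0.78, SE 0.23, adjusted p = 0.0386), and the call was lost without any of the 4 sections (0.0835 to 0.184).

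**Figure D4:**
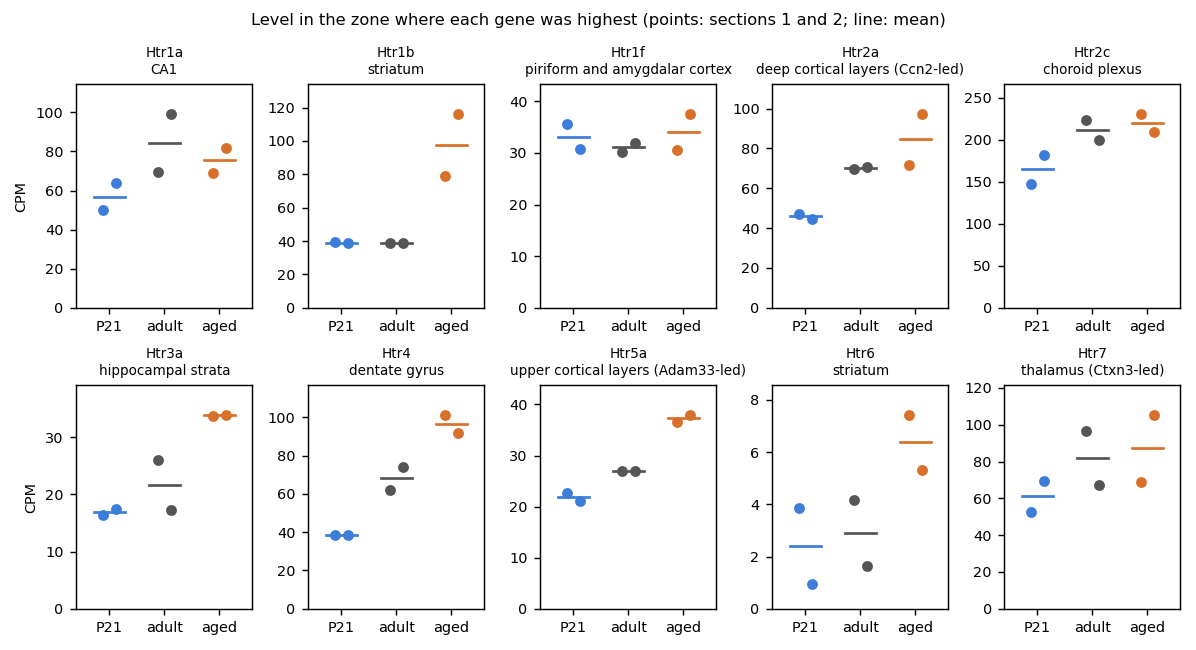
Level of each serotonin receptor gene in CPM (vertical axis, from 0) at each age (horizontal axis) in the zone where its mean was highest. Points are sections 1 and 2 of an age and lines their mean. Htr4 in the dentate gyrus lay at 38.6 and 38.3 at P21, 62.3 and 74.0 in adult and 101 and 91.8 in aged sections, where aged vs. adult was not called. Htr1b in the striatum was the widest apart between adult and aged sections, at 39.0 and 39.0 against 78.7 and 116.

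In aged vs. adult 51 pairs were called, 18 higher and 33 lower, or 24.2% of those tested (8.53% higher and 15.6% lower), beside 12.4% of all gene and zone pairs (6.86% higher and 5.51% lower). The median over the receptor pairs was 0.05, and the median over all genes lay between -0.02 and 0.03 in every zone. Calls were lower for Htr1a (4), Htr1f (7), Htr2c (7) and Htr7 (3), higher for Htr5a (5), and of both kinds for Htr1b (3 higher, 2 lower), Htr2a (1 and 6), Htr3a (2 and 2) and Htr4 (7 and 2). Of the 33 lower calls, 29 were in zones below the gene's own mean over zones, and of the 18 higher calls 12 were in zones above it, where 127 of the 211 pairs lay below and 84 above. That mean includes the aged sections, so a position below or above it is not independent of the change. The same split was not taken over all genes, so it is not known to be particular to the receptors. The higher count was 11 without adult 1 and 11 without adult 2.

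The marker panels, which also named the zones, were compared between the same ages, with no share over all genes taken. Of 14 marker panels with a zone of their own, 11 were lower in aged than in adult sections in the median zone outside it (log2 ratios of -2.02 for choroid plexus markers to 0.29) and 8 were higher within it (-0.52 to 0.82). At P21 vs. adult 4 of the 14 were lower outside and 4 higher within. The part of this in the receptor results was not tested, and panel values stand beside the main groups of calls.

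In the striatum, 5 of the 10 receptor genes tested were called in aged sections, 3 higher and 2 lower, where 15.8% of genes were called (8.45% higher, 7.31% lower). Htr1b rose from 39.0 and 39.0 CPM to 78.7 and 116 (log2 change 1.34, SE 0.17, 2.53-fold, adjusted p = 6.83e-06), and the call held without each section in turn. Htr2a stood at 44.4 and 66.2 CPM against 38.1 and 23.8 (0.84, SE 0.21, adjusted p = 0.00494), a call lost without adult 2 (0.133) and without aged 2 (0.0679). Htr4 stood at 97.0 and 56.5 CPM against 43.2 and 49.3 (0.73, SE 0.21, adjusted p = 0.011), a call lost without adult 1 (0.127) and without aged 1 (0.201). Htr1a fell from 12.5 and 9.76 CPM to 3.15 and 1.62 (log2 change -2.25, SE 0.43, adjusted p = 0.000487) and held throughout. Htr1f stood at 19.2 and 10.6 CPM against 22.3 and 39.6 (-1.05, SE 0.30, adjusted p = 0.0117), a call lost without adult 2 (0.294) and without aged 2 (0.07).

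The summed level of 8 striatal markers in that zone was 6411 and 6602 CPM in aged against 4032 and 3666 in adult sections, and that of 8 thalamic markers 163 and 174 against 345 and 303. Pan-neuronal markers stood at 3943 and 4170 CPM against 5547 and 5237. Their part in the striatal results was not tested.

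The promoters of Htr1b and Htr2a, which were both higher in the aged striatum, are shown for the sequence next to each start. The 250 bases before the RefSeq start (GRCm38.p6), chr9:81633833-81634082 on the minus strand for Htr1b and chr14:74640624-74640873 on the plus strand for Htr2a, are printed 5′ to 3′ along the gene, with matched motifs in capitals.
Htr1b: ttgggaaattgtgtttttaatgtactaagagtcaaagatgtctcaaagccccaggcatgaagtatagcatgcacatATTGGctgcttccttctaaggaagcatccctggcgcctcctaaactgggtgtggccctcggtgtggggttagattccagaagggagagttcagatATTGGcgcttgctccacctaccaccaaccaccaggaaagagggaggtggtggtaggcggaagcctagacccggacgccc
Htr2a: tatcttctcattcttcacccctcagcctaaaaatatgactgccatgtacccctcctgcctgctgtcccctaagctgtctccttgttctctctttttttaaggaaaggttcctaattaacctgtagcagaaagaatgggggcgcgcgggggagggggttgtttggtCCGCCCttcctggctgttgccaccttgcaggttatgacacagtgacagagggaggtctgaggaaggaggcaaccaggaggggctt
The letters searched, on both strands, were those of the CAAT box (CCAAT), the GC box (GGGCGG), the TATA box (TATAAA) and the cAMP response element (TGACGTCA), and no matches of different motifs overlapped. Htr1b held 2 matches to CCAAT, both on the opposite strand (as ATTGG), and Htr2a held 1 match to GGGCGG, on the opposite strand (as CCGCCC). Of 32851 promoters of the same length, 33.8% held the CAAT box letters, 32.7% those of the GC box, 12.4% those of the TATA box and 1.55% those of the cAMP response element. The 2 promoters shared none of the motifs found.

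**Figure D5:**
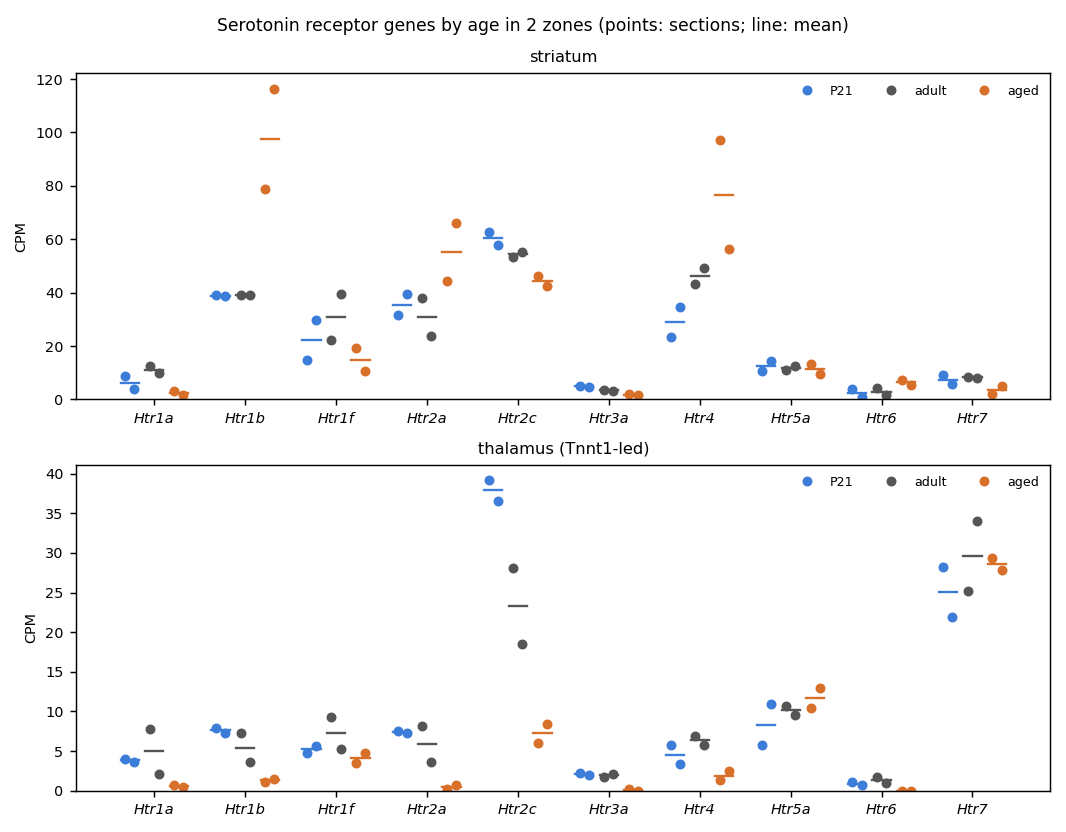
Level of each serotonin receptor gene in CPM (vertical axes, from 0) in the striatum (top) and the Tnnt1-led thalamus (bottom). Points are the 2 sections of each age and lines their mean. In the striatum the aged sections lay above the others for Htr1b, at 78.7 and 116 CPM, and in the thalamus they lay below the others for Htr2c, at 6.01 and 8.46 CPM, whereas Htr7 overlapped between adult and aged.

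Lower calls in aged sections were made in the Tnnt1-led, Prkcd-led and reticular thalamic zones. The Ctxn3-led thalamus differed, with 6 receptor genes tested, none called and a median log2 change of 0.28. In the Tnnt1-led zone 5 of 8 receptor genes tested were lower in aged sections, where 18.4% of genes were called (10.5% lower). Htr2c fell from 28.1 and 18.5 CPM to 6.01 and 8.46 (log2 change -1.63, SE 0.24, adjusted p = 1.49e-05), Htr2a from 8.11 and 3.60 to 0.223 and 0.746 (-3.47, SE 0.61, adjusted p = 0.00013; 43 UMIs in adult and 4 in aged) and Htr4 from 6.95 and 5.75 to 1.34 and 2.49 (-1.68, SE 0.42, adjusted p = 0.00325), and these calls held without each section in turn. Htr1a (7.82 and 2.16 against 0.668 and 0.497 CPM, adjusted p = 0.00166) and Htr1b (7.24 and 3.60 against 1.11 and 1.49 CPM, adjusted p = 0.00253) were lost without adult 1 (0.119 and 0.0807). Htr7, whose highest zone was the Ctxn3-led thalamus, held 25.2 and 34.0 CPM in adult and 29.4 and 27.9 in aged sections, which overlapped.

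The Prkcd-led thalamus repeated the fall of Htr1a, from 7.31 and 4.10 CPM to 0.142 and 0.537 (log2 change -3.99, SE 0.57, adjusted p = 0.000242; 44 UMIs in adult and 4 in aged), and of Htr2a, from 3.96 and 5.33 to 1.14 and 0.895 (-2.15, SE 0.41, adjusted p = 0.0019). Both held without each section. Htr4 there showed a log2 change of -0.95 (adjusted p = 0.0405), lost without every section but aged 2 (0.0731 to 0.234). Htr5a moved the other way, with 15.2 and 15.2 CPM against 9.75 and 9.23 (0.72, SE 0.21, adjusted p = 0.0202), and was lost without adult 1 (0.073) and adult 2 (0.134).

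In the reticular thalamus, a shell of GABAergic neurons, 4 of 7 receptor genes tested were lower, where 17.6% of genes were called (9.41% lower). Htr2c fell from 23.4 and 33.6 CPM to 6.39 and 6.39 (log2 change -2.14, SE 0.38, adjusted p = 9.62e-05) and Htr2a from 11.2 and 9.94 to 1.16 and 1.60 (-2.85, SE 0.63, adjusted p = 0.00101). Htr1f had 23 UMIs in the adult and 2 in the aged sections, a ratio of 14.4 (95% exact interval of 3.56 to 126, counting error only; adjusted p = 0.000598), and these 3 calls held throughout. Htr1b, with 17 against 3 UMIs, a ratio of 7.09 (2.05 to 37.8; adjusted p = 0.014), was lost without adult 2 (0.54) and aged 1 (0.155).

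Some marker panels of other zones were lower in the same thalamic zones. Not every panel moved this way over the zones. The reticular thalamus, hippocampal strata and meningeal panels were higher in aged sections in the median zone outside their own (log2 ratios 0.29, 0.2 and 0.2). In the Tnnt1-led zone, 8 striatal markers summed to 97.5 and 123 CPM in aged against 250 and 217 in adult sections, 6 CA1 markers to 63.0 and 62.7 against 157 and 123, and 9 choroid plexus markers to 48.3 and 75.1 against 1061 and 870. In the reticular thalamus the striatal markers stood at 79.1 and 69.5 against 390 and 304 CPM. Pan-neuronal markers moved less, 6144 and 6825 against 6781 and 6993 CPM in the Tnnt1-led zone, and the thalamic panel was higher, 7211 and 7646 against 4802 and 5296. The part of these markers in the lower receptor levels was not tested.

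Fiber tracts and choroid plexus, zones of glia and epithelium, also held lower calls in aged sections. In the C4b-led fiber tracts 5 of 9 receptor genes tested were lower and 1 was higher, where 31% of genes were called (13.9% lower, 17% higher). Htr2a fell from 14.5 and 11.3 CPM to 2.876 and 3.102 (log2 change -2.0, SE 0.36, adjusted p = 8.97e-05) and Htr2c from 52.5 and 59.5 to 16.9 and 33.1 (-1.08, SE 0.20, adjusted p = 0.000137), and both held without each section. Htr1f (-1.10, adjusted p = 0.00806) was lost without adult 2 (0.0678) and aged 1 (0.0655), Htr3a (-2.26, adjusted p = 0.00507) without adult 1 (0.0698) and aged 1 (0.0836), and Htr7 (-1.19, adjusted p = 0.005) without aged 1 (0.101). In the choroid plexus, Htr1f fell from 11.6 and 18.8 CPM to 1.89 and 1.21 (-3.09, SE 0.65, adjusted p = 0.000985) and held without each section, with no adjusted p from DESeq2, whereas Htr2c, the receptor of that tissue, stood at 231 and 209 against 223 and 200 CPM. Pan-neuronal markers stood at 1529 and 1732 CPM in the aged C4b-led tracts against 3746 and 3636 in adult ones, and at 1201 and 1400 against 3938 and 3158 CPM in the choroid plexus, and their part in the result was not tested.

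The estimate of Htr4 was above adult in 20 of the 23 zones tested, a count not taken over all genes. Htr4 was the receptor gene with the most higher calls, 7 of the 23 (30.4%), beside 6.86% of all gene and zone pairs. The largest was in the Ccdc42-Cartpt-led zone, with 56.2 and 57.7 CPM against 24.6 and 15.2 (log2 change 1.56, SE 0.24, 2.96-fold, adjusted p = 0.000641), followed among the calls that held without each section by the hippocampal strata, with 42.7 and 50.2 against 18.6 and 24.1 (1.16, SE 0.20, adjusted p = 0.000124), a call lost over inner spots, those whose neighbouring spots all lie in the same zone (0.89, adjusted p = 0.201). The Nts-Tac2-led zone (1.20, adjusted p = 0.00397) was lost without aged 1 (0.105), piriform and amygdalar cortex (1.05, adjusted p = 0.003) without adult 2 (0.105), the C4b-led fiber tracts (0.96, adjusted p = 0.0107) without adult 1 (0.171) and the Pmch-led zone (0.84, adjusted p = 0.0101) without adult 1 (0.0585). The 6 markers of the hippocampal strata summed to 11227 and 13831 CPM there in aged against 7316 and 7444 in adult sections, and their part in the calls of that zone was not tested. In the dentate gyrus, its leading zone, the aged values of 101 and 91.8 CPM lay above both adult values but the gene was not called.

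Htr5a had 5 higher calls in 25 zones tested. The Ccdc42-Cartpt-led zone again led, with 24.5 and 28.2 CPM against 8.45 and 11.4 (log2 change 1.38, SE 0.29, adjusted p = 0.00553), a call that held without each section but was lost over inner spots (1.14, adjusted p = 0.0889), with zones from 20 principal components (0.56, adjusted p = 0.0915) and with glmTreat (adjusted p = 0.152). DESeq2, another count test, gave no adjusted p for Htr4 or Htr5a there. That zone's 6 pan-neuronal markers summed to 4661 and 4155 CPM in aged against 5020 and 5182 in adult sections, and its 10 hypothalamic markers to 4774 and 4491 against 3642 and 4243. The Gm765-led upper cortical layers showed 30.03 and 33.99 CPM against 19.6 and 16.2 (0.84, SE 0.22, adjusted p = 0.00668), lost without adult 2 (0.11). CA3 (1.03, adjusted p = 0.0377) was lost without adult 1 (0.23), adult 2 (0.154) and aged 1 (0.0872), and piriform and amygdalar cortex (0.64, adjusted p = 0.0316) without any of the 4 sections (0.0668 to 0.193).

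The remaining calls were scattered over hippocampus, cortex and subcortical zones. Htr3a was higher in the hippocampal strata, its leading zone, with 33.7 and 34.0 CPM against 25.97 and 17.33 (log2 change 0.68, SE 0.22, adjusted p = 0.0246; lost without adult 2 at 0.286 and aged 1 at 0.0517), and in the Gm765-led upper cortical layers (0.87, adjusted p = 0.0181; lost without adult 1 at 0.383 and aged 2 at 0.145). In the Adam33-led upper cortical layers Htr2a was lower, with 38.2 and 46.5 CPM against 69.5 and 64.5 (-0.65, SE 0.15, adjusted p = 0.00246), a call lost without adult 1 (0.0544) and, on fold size, without aged 1 (-0.54, adjusted p = 0.00813). Htr7 fell in the Fezf2-Gm19410-led zone, from 14.9 and 11.2 CPM to 5.94 and 4.93 (-1.31, SE 0.28, adjusted p = 0.00122), lost without adult 1 (0.0815). In CA1, Htr1a held 69.2 and 81.9 CPM in aged against 69.7 and 99.4 in adult sections, and in the Ctxn3-led thalamus Htr7 held 68.8 and 106 against 96.8 and 67.2, so the leading zones of these receptors overlapped between the ages.

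Further calls were made at smaller sizes or on fewer UMIs, and each was lost without at least 1 section. Htr1a was lower in the Rspo2-Dkkl1-led zone (log2 change -1.0, adjusted p = 0.0335; lost without adult 2 at 0.423 and aged 1 at 0.143). Htr1b was higher in the Thbs4-led fiber tracts, with 10.4 and 20.1 CPM against 7.10 and 8.68 (1.03, adjusted p = 0.00828; lost without adult 1 at 0.0783 and aged 2 at 0.438), and in the Fezf2-Gm19410-led zone (0.69, adjusted p = 0.0436; lost without adult 1 at 0.22, adult 2 at 0.122 and aged 1 at 0.131). Htr1f was lower in the hippocampal strata, with 7.83 and 7.84 CPM against 15.2 and 22.4 (-1.22, adjusted p = 0.00721; lost without adult 2 at 0.153), in the Thbs4-led fiber tracts (-0.91, adjusted p = 0.0139; lost without adult 2 at 0.106 and aged 2 at 0.212) and in the Adam33-led layers (-0.67, adjusted p = 0.0215; lost without adult 1 at 0.486). Htr2a was lower in the choroid plexus (-1.6, adjusted p = 0.0143; lost without adult 1 at 0.0739, adult 2 at 0.0868 and aged 1 at 0.117). Htr2c was lower in CA3 (-1.17, lost without adult 2 at 0.366 and aged 2 at 0.059), the Fezf2-Gm19410-led zone (-0.88, lost without adult 1 at 0.525), the Trbc2-led layers (-0.74, lost without adult 2 at 0.0703) and the hippocampal strata (-1.11, lost without adult 1 at 0.228 and aged 1 at 0.105). Htr3a was lower in the Pmch-led zone, on 6 UMIs in aged and 18 in adult sections (-2.57, adjusted p = 0.00762; lost without adult 1 at 0.0536 and aged 2 at 0.137), and Htr7 in the Ndst4-Igfn1-led zone (-0.61, lost without adult 2 at 0.326 and aged 1 at 0.0923). Htr6 showed log2 changes of 0.05 to 1.14 in its 4 tested zones and was not called, with 7.44 and 5.32 CPM in the aged striatum against 4.18 and 1.63 in the adult one.

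Whether a receptor's change differed between zones was tested with a zone-by-age interaction that removes any factor acting alike on a whole section. A factor acting unequally on the zones is not removed. In aged vs. adult such an effect of slide, transfer, probes or software cannot be told apart from age. At P21 vs. adult 3 of the 10 receptor genes, Htr1a, Htr1f and Htr2c, passed an adjusted p of 0.05, where 18.6% of 14088 genes did. In aged vs. adult all 10 passed, where 44.2% of genes did. Htr6, 1 of them, had passed the filter on low counts in only 4 single zones. The P21 count was 0 without P21 1, 1 without P21 2 and 1 without adult 1, and the aged count lay between 7 and 9 on leaving out any section.

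The other genes of the serotonin system were read from lists of 4 further receptors, 8 genes of synthesis, transport and breakdown and 31 transducers and partners. Of the further receptors, Htr5b was a gene of the medial habenula, with 72.4 and 102 CPM at P21, 0 and 108 in adult and 109 and 161 in aged sections there, where the 0 of adult 1 allows up to 25.3 CPM (3 UMIs, counting error only). Its whole-section level, 5.12 and 5.75, 1.60 and 3.28, and 3.29 and 6.16 CPM, was lowest in adult 1, the section with 7 habenular spots. Htr5b was called higher in whole sections at both ages (log2 change 1.14, adjusted p = 0.0215 at P21 and 0.85, adjusted p = 0.0329 in aged). Htr1d, Htr2b and Htr3b stayed below 2 CPM in every section. Of the 4, 2 were called higher at P21 and 4 in aged whole sections, where 5.69% and 23.8% of all genes tested were called higher. In the adult sections Htr3b rested on 3 and 1 UMIs and Htr2b on 3 and 5.

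Genes that mark serotonin neurons themselves, whose cell bodies lie in the brainstem, were scarce. Tph2, which encodes the rate-limiting enzyme of serotonin synthesis in neurons, held 1.073 to 1.798 CPM per section, and Slc6a4, the serotonin transporter gene, had 0 UMIs in both adult sections, a count that allows up to 3 in each, and 3 to 35 in the others. Slc18a2, the vesicular monoamine transporter gene that dopamine and histamine neurons also use, held 10.4 and 14.1 CPM at P21, 2.02 and 2.65 in adult and 3.65 and 13.1 in aged sections, and its highest zone was the hypothalamus. The adult sections held the fewest hypothalamic spots, as given above. Over 111 zone tests of the list, 6 were called higher and 3 lower at P21 (8.11%, median log2 change -0.01), beside 4.46% of all pairs. All 6 higher calls were of Slc18a2, tested in 12 zones, and the 3 lower ones were of Ddc, Maob and Aldh2. In aged sections 11 were called higher and 0 lower (9.91%, median 0.22), beside 6.86% higher and 5.51% lower of all pairs.

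The transducers and partners moved more in aged sections, with 107 higher and 84 lower of 800 zone tests (23.9%, median log2 change 0.09, beside 12.4% of all pairs), than at P21, with 11 higher and 39 lower (6.25%, median -0.08, beside 4.46%). Arrb2, an arrestin gene, was higher in 23 of 26 zones of aged sections, Adar, which encodes an RNA-editing deaminase that acts on Htr2c transcripts, in 18, and Rgs2, a regulator of Gq signalling, in 17. Over whole sections Arrb2 rose by a log2 change of 1.02 (SE 0.06, adjusted p = 2.14e-06), Rgs2 by 0.73 (SE 0.09, adjusted p = 7.65e-05) Prkcb by 0.64 (SE 0.06, adjusted p = 2.77e-05) and Adar by 0.62 (SE 0.07, adjusted p = 5.42e-05). Adarb1, the other editing enzyme of the list, was lower in 6 zones. Adcy8, an adenylyl cyclase gene, was lower in 14 zones and Plcb1, a phospholipase C gene downstream of Gq, in 9. Itpr1, the inositol trisphosphate receptor gene, was lower in 16 zones at P21.

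In the aged striatum, where Htr1b, Htr2a and Htr4 were higher and Htr1a and Htr1f lower, Rgs2 rose from 154 and 143 CPM to 355 and 355 (log2 change 1.27, SE 0.10, adjusted p = 1.56e-08). Also called higher there were Arrb2 (log2 change 1.06), Prkcb (1.05), Gna11, a Gq-family subunit gene (0.81), Adar (0.70) and Adcy5, the principal adenylyl cyclase gene of striatal neurons (0.60, adjusted p = 0.000118). Called lower were Adcy8 (-1.55), Kcnj6 and Kcnj9, genes of channels opened through Gi/o-coupled receptors (-1.50 and -0.89), the phospholipase C gene Plcb4 (-0.94), the Gs subunit gene Gnas (-0.66, adjusted p = 5.36e-05) and the Gi subunit gene Gnai1 (-0.63). In the Tnnt1-led thalamus Htr1a, Htr1b, Htr2a, Htr2c and Htr4 were lower. Plcb1 (log2 change -1.50, SE 0.12, adjusted p = 3.4e-09), S100a10 (-1.04) and Ppp1r1b (-0.74) fell there, whereas Arrb2 (0.99), Prkcb (0.75), Adar (0.69), Adcy1 (0.65), Rgs4 (0.65) and Kcnj3 (0.60) rose. Of all genes tested, 15.8% were called in the striatum and 18.4% in the Tnnt1-led zone. The calls of Htr2a, Htr4 and Htr1f in the striatum were lost without some section. So were those of Htr1a and Htr1b in the thalamus. Striatal markers were higher in the aged striatum and thalamic markers in the aged Tnnt1-led zone, and their part in these changes was not tested.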

How the data were processed

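The deposited count matrices list UMIs for each gene in each spot covered by tissue. The authors made them with Space Ranger from mouse probes and mm10, with the versions in the file headers. The labels' processing notes name Space Ranger 2.1.0 and Seurat 5.1.0. The deposited spatial tables give a Moran's I score, which was used, and its p-value, total counts and a signal of median-normalized counts, which were read to check the files. Depth was 12074.5 to 25535 median UMIs per spot.

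Spots under 250 genes or 500 UMIs were removed. Zones were Leiden clusters (leidenalg 0.10.2, resolution 1.0, 3000 variable genes without 53 receptor and pathway genes, 30 principal components, a Harmony-type correction written for this work, 20 neighbours). Of 29 clusters, 26 were tested and 19 named from marker panels, by a naming rule set after marker scores were seen. UMIs were summed per section and zone and fitted with edgeR 4.0.16 in R 4.3.3 (TMM factors, filterByExpr with a minimum count of 10, glmQLFit and glmQLFTest, age as the only term, Benjamini-Hochberg over all genes of a zone). The interaction fit had section, zone and zone by age. The zone fit was tried on simulated striatal counts with 200 of 12024 genes changed by a fold of 2. It recovered 79% of them with 14 false calls. The interaction fit was tried on simulated counts of fewer zones and a fixed spread, so neither trial covers the scarcer receptor counts of other zones. Nothing in the labels says how animals were drawn beyond biological replicates, and p-values measure the spread between these sections. Receptor genes and lists were chosen with earlier results of these data known. For named genes, all 10 receptors were described in every zone, with the fixed lists and, per receptor, the 3 genes of most similar zone pattern. The authors' zone labels were not used here. Alternatives were RLE factors, plain library sizes, DESeq2 1.42.0, glmTreat, no filter, the study's detection criteria, a replicate block, inner spots, 20 principal components and leaving out each section. The Pmch-led zone is named by 1 of its leading genes, and single results of 1 pathway gene are not reported here.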

Additional observations from a re-analysis of the deposited data

Results flagged for a closer look

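A change that differed between zones was found by the zone-by-age interaction (edgeR quasi-likelihood test over 26 zones, Benjamini-Hochberg over 14088 genes) for the following receptor genes. At P21 vs. adult the adjusted p was 0.0396 for Htr1a, 0.0134 for Htr1f and 0.00127 for Htr2c. In aged vs. adult it was 3.89e-12 for Htr2a, which was higher in the striatum and lower in 6 other zones, and 1.57e-07 for Htr1a. The adjusted p was 7.81e-05 for Htr1f, 8.17e-05 for Htr1b, 0.000256 for Htr5a and 0.000495 for Htr3a. It was 0.00206 for Htr4, which was higher in 7 zones and lower in the Tnnt1-led and Prkcd-led thalamus, 0.00778 for Htr2c, 0.027 for Htr6 and 0.0299 for Htr7. Htr6 passed the filter on low counts in 4 single zones, and other zones of this fit held few of its UMIs, such as 5 over all sections in the reticular thalamus. In aged vs. adult, effects of slide, transfer, probes or software that differ between zones cannot be told apart from age in this fit.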

How the results depend on the processing

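No call reversed its direction under any alternative run. With RLE factors, plain library sizes, no filter, the study's detection criteria and 20 principal components the zone counts stayed within 1.5 times. At P21 vs. adult the 13 calls (6 higher, 7 lower) became 4 (3 and 1) with DESeq2 (no adjusted p for 52 of 211 pairs), 1 (1 and 0) with glmTreat against a fold of 1.5 and 2 (2 and 0) over inner spots, where only 111 pairs could be tested. Leaving out each section gave 1 to 20 calls, 1 to 8 higher and 0 to 12 lower. In aged vs. adult the 51 calls (18 higher, 33 lower) became 22 (4 and 18) with DESeq2 (none for 69 pairs, among them 8 of the calls, not counted as lost), 18 (3 and 15) with glmTreat and 23 (7 and 16) over inner spots. Leaving out each section gave 34 to 53 calls, 11 to 21 higher and 23 to 34 lower. The P21 interaction count of 3 became 1 over inner spots, 1 with 20 principal components and 0 to 4 leaving out each section. The whole-section count over both comparisons, 1, became 2 with plain library sizes (added after the data were seen), and 1 to 2 leaving out each section. Of the 13 P21 calls 12 were lost leaving out some section and 0 held in every alternative that tested them, and of the 51 aged calls 35 were lost and 14 held.

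Replicate numbers paired no sections (correlations of deviations 0.021 for P21 and adult, -0.044 for P21 and aged, -0.175 for adult and aged, over 18104 genes). With the replicate block 10 calls (4 higher, 6 lower) were made at P21 and 50 (18 and 32) in aged sections. With the aged numbers crossed, a pairing added after the data were seen, there were 15 (6 and 9) and 53 (18 and 35) calls.

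Leaving out a section leaves its age with 1 section, assumed to vary like the other ages. The pathway lists were fitted with all sections only. Calls on few UMIs rest on counts such as 4 in aged and 44 in adult sections for Htr1a in the Prkcd-led thalamus, and Htr6, with 923 UMIs in all, was tested in 4 zones.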
